A study of Mus musculus with 4 samples.

Results

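The genes of the cytosolic ribosomal proteins were examined in mouse soleus muscle with and without hormone-sensitive lipase (HSL). They were taken by symbol: every probe set with exactly 1 gene symbol in the platform annotation was kept where that symbol began with Rpl or Rps and a digit, or was Rplp0, Rplp1, Rplp2 or Rpsa. S6 kinase genes and symbols of pseudogenes were left out, and a gene with several probe sets was represented by the one with the highest mean over the 4 arrays. This gave 35 genes of 8251 with such a probe set, 17 of the large and 18 of the small subunit. Symbol alone chose them, and no measured difference between genotypes was used.

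Soleus is a slow-twitch muscle of the calf, and HSL, encoded by Lipe, is an enzyme that splits stored acylglycerols and cholesteryl esters. The wildtype group and the HSL-null group each held 2 arrays, which the labels call technical duplicates of muscle pooled from 5 females aged 6 months. The duplicates of a genotype were taken as measurements of 1 pool, so each genotype was 1 sample and no difference below has a check across animals. The labels give neither the strain nor the disrupted allele.

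Ribosomal proteins build the particles that make all cellular protein. Those named Rpl belong to the large subunit, which joins amino acids and passes the chain through an exit tunnel, and those named Rps to the small subunit, which reads the mRNA. Their genes are among the most highly transcribed of most cells, and the mRNAs carry a terminal oligopyrimidine start (TOP), a C followed by pyrimidines, through which mTOR signalling controls their translation. In muscle, translation capacity follows ribosome content, and mRNA level is only one of the steps that set it.

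The start sites that RefSeq lists for the genes (assembly GRCm38.p6) held this element in a minority. Of the 35 genes 28 had a start site in the table, and 5 of the 28 (17.9%) had one at which a C was followed by at least 4 pyrimidines. Among all genes on the array with a listed start the share was 2.95% (194 of 6572). The 5 starts are shown because the element is the feature that sets these mRNAs apart from most others. Each run holds the 15 bases before the start and the first 15 of the transcript, 5′ to 3′ on the gene's strand, with the pyrimidine tract in capitals.
Rpl35a (chr16:33056467-33056496, plus strand): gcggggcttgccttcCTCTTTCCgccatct
Rpl38 (chr11:114668565-114668594, plus strand): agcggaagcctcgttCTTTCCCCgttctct
Rps10 (chr17:27635230-27635259, minus strand): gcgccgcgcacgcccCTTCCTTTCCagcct
Rps18 (chr17:33955651-33955680, minus strand): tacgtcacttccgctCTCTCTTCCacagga
Rps27 (chr3:90213634-90213663, minus strand): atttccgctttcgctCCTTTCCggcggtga

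A listed start can lie some bases away from the start used in muscle, so a gene without the element at its listed start may still have it. Short motifs were then sought on both strands of the 250 bases before and 50 after each start. CCGGAAG, the core that ETS factors bind, was present for 12 of the 28 genes (42.9%), against 17.1% of genes on the array. AAGATGGC, which resembles the site of the factor YY1, was present for 5 (17.9%, against 4.61%). GGGCGG, a core of Sp1 sites, was found for 17 of 28 (60.7%) and for 63.1% of genes on the array, and TATAAA for 4 (14.3%) and 12.2%. These are matches of letters only. Of the genes with this listed TOP start, those above the filter are given here as log2 differences, HSL-null minus wildtype, with SE of duplicates. Rps27 differed by 0.23 ± 0.11, Rps18 by -0.0022 ± 0.044 and Rps10 by -0.13 ± 0.083. So few genes, picked by listed starts, cannot show whether mRNAs with the element share a direction.

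The samples were checked before the genes were compared. Lipe had intensities of 71.4 and 70.2 in wildtype, against 16.2 and 19.4 in HSL-null. All 9 markers of skeletal muscle were above the filter (a mean intensity of at least 27.7, the median of all probe sets), among them all 6 of slow fibres, and 0 of 5 lymphocyte markers were. Duplicate arrays correlated at r = 0.988 in both genotypes across 4851 genes, which are not independent replicates, and arrays of different genotypes at 0.983 to 0.986. Several marker lists differed between the pools. The 4 adipocyte markers on the arrays summed to 347 to 374 in wildtype and 255 to 266 in HSL-null. Of the 3 above the filter 2 were lower on every array pair, 1 of them by at least 1.5-fold on each. The 6 fast-fibre markers summed to 8497 to 9357 and 12455 to 12466 (4 of 6 higher on every pair). Of these 3 were at least 1.5-fold higher on every pair, and the largest log2 difference, HSL-null minus wildtype, was 2.72. The 4 fibroblast markers summed to 3036 to 3065 and 3510 to 3610 (4 of 4), and the 3 erythroid markers to 2464 to 2564 and 2675 to 2791 (3 of 3). Of all genes above the filter 19.7% were higher and 21.5% lower on every pair, and 0.206% and 0.247% by at least 1.5-fold on each. No marker was listed at 0. For the beta-actin control, 3′ over 5′ signal was 0.688 and 0.706 in wildtype and 0.816 and 0.823 in HSL-null, and that of Gapdh 0.955 and 0.927 against 0.922 and 0.912. Their part in the values below was not tested.

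Detection of the 35 genes depended on the probe set. The 24 above the filter spanned intensities of 28.3 to 3936, with 19 at or above 703 and the other 5 at or below 122. The 11 below it included 8 constitutive ribosomal proteins, which every cell needs, and 3 paralogs or relatives (Rpl39l, Rps27l and Rpl7l1). Rpl32, Rps15 and Rps27l did not exceed the floor (intensity 5.7, the 25th percentile of all values) on any array. Rps27l, a paralog of Rps27, had 4.0 and 3.5 in wildtype and 2.9 and 2.0 in HSL-null, and Rpl39l, a relative of the tunnel protein Rpl39, 1.1 and 2.3 against 1.3 and 8.1. Rpl39 itself, which lines the exit tunnel, had 4.6 and 10 in wildtype and 4.1 and 3.7 in HSL-null, so that neither member of that pair was measured. A low intensity here is a property of the probe set as well as of the mRNA, and intensities of different genes are not compared as levels.

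**Figure D1:**
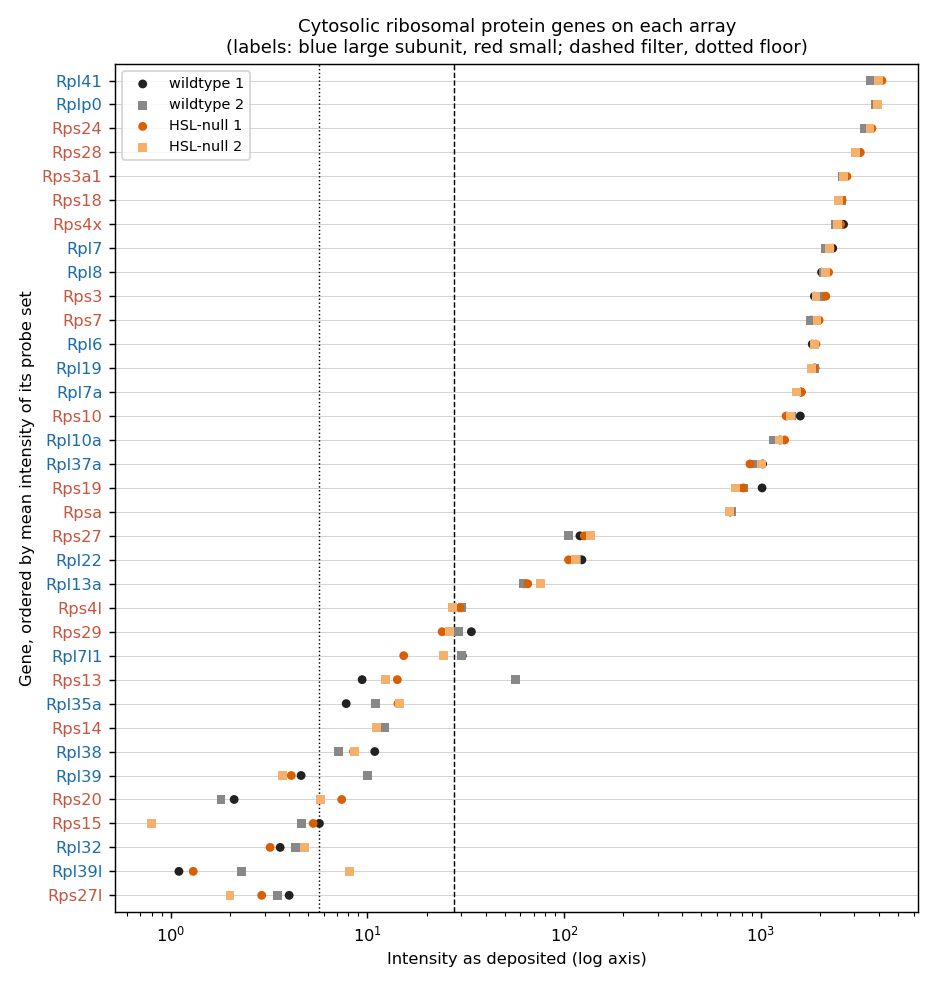
Intensity as deposited (log axis) of the 35 ribosomal protein genes on each of the 4 arrays, 1 row per gene, ordered by mean intensity. The 24 genes right of the dashed line (27.7) were compared, and for the 19 at or above 703 the 4 arrays lie close together.

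No ribosomal protein gene stood clearly apart between the 2 pools. Of the 24 compared, 0 were separated, a term used here for genes at least 1.5-fold higher, or at least 1.5-fold lower, in each of the 4 pairings of an array from one genotype with an array from the other. Their log2 differences, HSL-null minus wildtype, ran from -0.33 to 0.23 with a median of 0.014, and 16 of 24 (66.7%) lay within 0.1 of 0, against 50.3% of all 4851 genes above the filter. All genes were dimmer, with a median intensity of 114 against 1870, and among the 114 other genes at least as bright as that median 78.9% lay within 0.1 of 0, against 11 of the 12 ribosomal protein genes there (91.7%). By the same rule 0.206% of all genes were separated higher and 0.247% lower, so that 0 of 24 is also near the background. In pooled tissue, fewer cells of a type and less RNA per cell cannot be told apart.

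Smaller differences that held on every array pair were about as frequent as among all genes when the values were used as deposited. Shares among genes of like brightness were different and are given further below. Both HSL-null arrays lay above both wildtype arrays for 4 of 24 genes (16.7%, against 19.7% of all genes) and below them for 5 (20.8%, against 21.5%), and for 15 the arrays overlapped. With the values as deposited, the 5 genes with a mean at or below 122 gave 2 higher and 3 lower, and the 19 brighter ones 2 higher and 2 lower. The split moved with the scaling: 4 were higher under each of the 5 scalings, while 3 were lower with median centring, 7 with cyclic loess and 9 with quantile normalization (all genes 18.5%, 20.7% and 21.0% lower). The median absolute difference between duplicates over the 24 genes was 0.076 in wildtype and 0.071 in HSL-null. Between single arrays of different genotypes it was 0.056 to 0.080 for the 4 pairs, a range that holds both duplicate values. The difference of 12 genes (50%, all genes 49.3%) was below its SE from duplicates, and that of 4 genes (16.7%, all genes 25.8%) above 2 SE.

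The median over the 24 genes had no fixed sign across array pairs. It was 0.012 and 0.041 for HSL-null array 1 against wildtype arrays 1 and 2, and -0.015 and -0.0013 for HSL-null array 2. Together the genes held 2.34% and 2.27% of the summed intensity of all probe sets in wildtype, against 2.34% and 2.30% in HSL-null. The sign also depended on the scaling: the median was 0.014 with the values as deposited, -0.033 with quantile normalization and -0.014 with cyclic loess, and no direction is given.

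**Figure D2:**
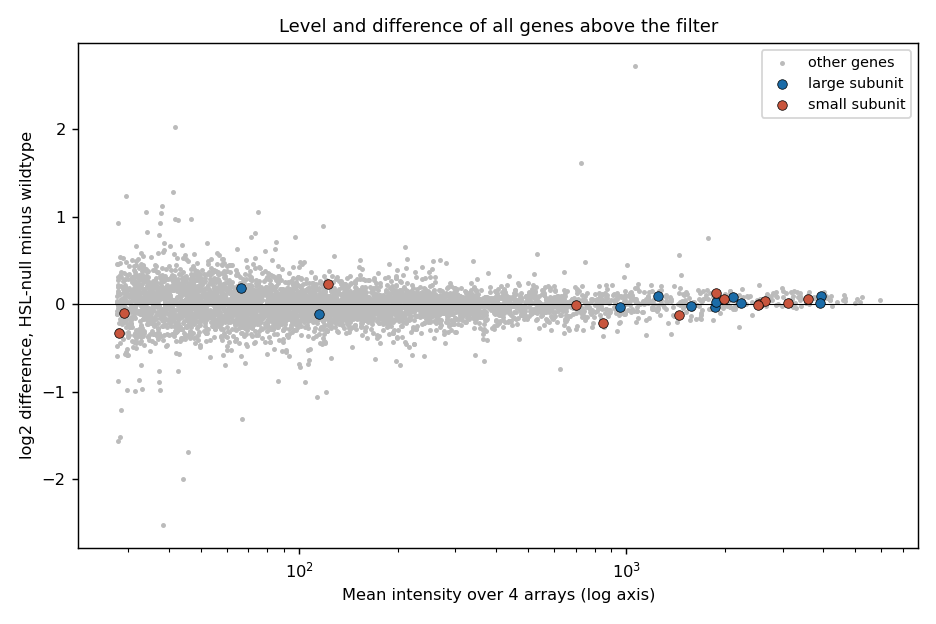
Log2 difference (HSL-null minus wildtype) against mean intensity over 4 arrays (log axis) for the 4851 genes above the filter, with the 11 large and 13 small subunit genes coloured. The ribosomal protein genes lie between -0.33 and 0.23, and the 2 at its ends, Rps29 and Rps27, have mean intensities of 28.3 and 122.

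Within the large subunit, 11 genes were above the filter and their median difference was 0.017. On every pair 2 were higher and 2 lower (18.2% each, against 19.7% and 21.5% of all genes), and 7 overlapped. Rpl8, a protein close to the site of peptide bond formation, had intensities of 2043 and 2079 in wildtype, against 2218 and 2130 in HSL-null. It was higher on every pair, by 0.077 ± 0.032 (log2, SE of duplicates), or 5.49%. Rpl13a, which also has a role outside the ribosome in silencing inflammatory mRNAs, measured 62.6 and 61.9 in wildtype and 65.4 and 75.8 in HSL-null (0.18 ± 0.11), and HSL-null array 2 is the one that stands clear.

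Rpl22 and Rpl19 lay on the other side. Rpl22, an RNA-binding protein near the tunnel exit that cells can lose, measured 123 and 116 in wildtype and 106 and 115 in HSL-null, a log2 difference of -0.12 ± 0.076. Its groups were nearly in contact, at 115.7 and 114.7. Rpl19, which also lies near the tunnel exit, measured 1892 and 1879 in wildtype and 1866 and 1819 in HSL-null, a difference of -0.033 ± 0.019, or 2.27% lower.

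The brightest large subunit genes overlapped between the pools. Rpl41, a very short basic protein, measured 4000 and 3633 in wildtype and 4143 and 3970 in HSL-null (0.089 ± 0.076). Rplp0, which forms the base of the stalk that recruits elongation factors, measured 3940 and 3820 against 3897 and 3941 (0.015 ± 0.024). Rplp0 is often used as a reference gene, and here the highest and the lowest of its 4 arrays were the HSL-null array 2 and the wildtype array 2. The sign of its difference moved with the scaling, to -0.063 with quantile normalization and -0.019 with cyclic loess. The other 5, Rpl6, Rpl7, Rpl7a, Rpl10a and Rpl37a, had differences from -0.032 to 0.089, and all 5 overlapped.

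Small subunit genes were spread more widely, from -0.33 to 0.23, around a median of -0.0022 over 13 genes. Their duplicates also differed more. The median absolute difference between duplicates was 0.107 in wildtype and 0.077 in HSL-null, against 0.045 and 0.062 for the large subunit. Rps7, a body protein that can also bind Mdm2, measured 1807 and 1795 in wildtype and 1985 and 1935 in HSL-null. Its difference of 0.12 ± 0.019 (8.78% higher) exceeded the spread of both pairs of duplicates. With quantile normalization this difference was 0.069. Rps27, a zinc-binding protein, measured 121 and 105 in wildtype and 127 and 137 in HSL-null, a difference of 0.23 ± 0.11.

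Of the 13 small subunit genes 2 were thus higher on every pair (15.4%, against 19.7% of all genes), and 3 were lower (23.1%, against 21.5%). Rps10, of the head of the small subunit, measured 1592 and 1438 in wildtype and 1349 and 1423 in HSL-null (-0.13 ± 0.083). Rps29, a small zinc-binding protein of the head, had the lowest difference of the 24, from 33.8 and 29.1 to 24 and 26.1 (-0.33 ± 0.12). Its mean of 28.3 is close to the filter. Rps4l, a paralog of Rps4x, measured 30.2 and 30.3 in wildtype and 29.5 and 27.0 in HSL-null (-0.10 ± 0.064), also next to the filter and on a probe set that can share probes with related sequences. Its other probe set, below the filter, had the opposite sign. The probe sets that stand for Rpl7, Rpl41 and Rps28 can likewise share probes with related sequences.

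Rps19, the gene most often mutated in Diamond-Blackfan anaemia, had the second lowest difference, but its groups overlapped. Its wildtype values were 1018 and 817.1, against 817.5 and 747 in HSL-null (-0.22 ± 0.17). The first wildtype array stood apart from the other 3, and the remaining wildtype value lay just under the higher HSL-null value. Rpsa, which is also known as a laminin receptor, measured 699 and 714 against 702 and 697 (-0.014 ± 0.016).

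The brightest small subunit probe sets overlapped between the pools. Rps28, at the head near the exit of the mRNA, measured 3095 and 3100 in wildtype and 3216 and 3037 in HSL-null (0.013 ± 0.041). Rps24 measured 3643 and 3383 against 3686 and 3601 (0.053 ± 0.056). The probe set that stands for Rps24 is listed under the same sequence record as the one that stands for Rpl7, and the other Rps24 probe set had a mean of 14.5, so that the identity of the bright signal is uncertain. Rps3, Rps3a1, Rps4x and Rps18 had differences from -0.0067 to 0.053 and overlapped.

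**Figure D3:**
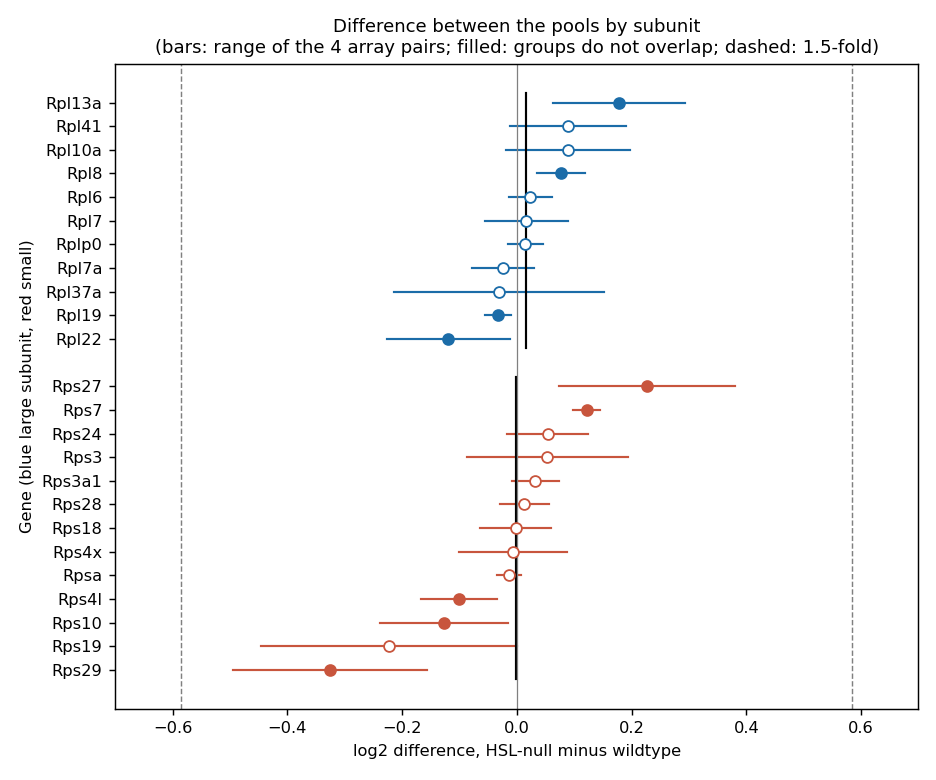
Log2 difference, HSL-null minus wildtype, of the 24 genes above the filter by subunit; points are differences of means, horizontal bars the range of the 4 array pairs, filled points genes whose groups do not overlap, and black lines the medians (0.017 and -0.0022). No bar reaches the dashed lines at 1.5-fold.

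The gap between the subunits changed sign across array pairs. The large subunit median exceeded the small subunit median by 0.019, and this gap was -0.014, -0.024, 0.0041 and 0.075 for the 4 array pairs. The summed intensity of the large subunit genes, divided by that of the small subunit genes, was 0.927 and 0.915 in wildtype and 0.923 and 0.944 in HSL-null. Of the 11 large subunit genes 7 were above 0 and 4 below, and of the 13 small subunit genes 6 and 7. Of all 4851 genes 2369 were above 0 and 2482 below. By position, 0 of 6 head genes were higher on every pair and 2 were lower (median -0.065), and both measured tunnel exit genes were lower (median -0.076). Those groups hold few genes. Lower on every pair were 21.5% of all genes and 4.39% of the 114 other genes at or above intensity 1870. Both groups hold dim and bright genes, so neither share is a like background.

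For single genes with several probe sets the values depended on the probe set. Among the 24 genes only Rpl10a and Rps28 had more than 1 probe set above the filter. The counts over the 24 genes could therefore hardly change with this choice. With the mean over probe sets above the filter, 4 were higher, 5 lower and 0 separated (all genes 19.4% higher and 21.2% lower). With the lowest of them the 3 counts were the same (all genes 19.3% and 20.8%). Of the 35 genes 10 had more than 1 probe set, 49 in all. The second bright probe set of Rps28 averaged 1894 ± 49.0 in wildtype against 1947 ± 13.4 (SD, n = 2 arrays) in HSL-null, or 0.040 ± 0.027 on the log2 scale, and the second of Rpl10a differed by 0.023 ± 0.17. The third probe set of Rps28, at a mean of 38.4, gave 0.30 ± 0.28. The 5 probe sets of Rps4x ranged in mean from 3.08 to 2516, although they name 1 gene. The other probe set of Rps4l, below the filter, measured 10.3 and 9 in wildtype and 12.5 and 13.5 in HSL-null (0.43 ± 0.11), higher on every pair where the probe set above the filter was lower. The other probe set of Rpl22, also below the filter, gave 0.58 ± 0.82, that of Rpl19 0.080 ± 0.92 and that of Rps29 -0.28 ± 0.72, each with overlapping groups.

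Among the members below the filter, a few differences were wide, at intensities where single arrays scatter. Rpl35a measured 7.8 and 11.0 in wildtype and 14.3 and 14.6 in HSL-null (0.64 ± 0.25). Rpl7l1, a relative of Rpl7 that acts in ribosome assembly, measured 30.4 and 30 against 15.3 and 24.3 (-0.65 ± 0.33), and lay just under the filter. Rps13 measured 56.8 on wildtype array 2 and between 9.4 and 14.2 on the other 3 arrays. Rps14 (-0.12 ± 0.019) and Rps20 (0.20 ± 0.18) did not overlap either, the latter with both wildtype arrays at the floor. Without the filter 17.0% of all 8251 genes were higher on every pair and 16.1% lower. Rpl38 overlapped, at -0.041 ± 0.31.

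Many ribosomal protein genes have processed pseudogenes, and their probe sets then list several symbols. The 39 probe sets of this kind listed 34 ribosomal protein genes, 33 of them not among the 35. They are given as a group only, since a probe set with several symbols names no single gene. Of 33 above the filter 6 were higher on every pair (18.2%, against 19.7% of all genes), 3 lower (9.09%, against 21.5%) and 0 separated, with a median of 0.028 and a range of -0.22 to 0.45. Their median intensity was 1602, against 114 for all genes, so all genes are an unlike background for them. The shares among bright genes follow in the next paragraph. Together with the 24 genes they gave 57 entries, 10 higher and 8 lower on every pair.

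The ribosomal protein genes were also set beside other bright genes. For this comparison, added after values were seen, the 114 other genes at or above the median intensity of the 24 (1870) were taken. Their median difference was 0.049, and 30.7% were higher on every pair and 4.39% lower. With quantile normalization these shares were 14.0% and 17.5%. Of the 12 ribosomal protein genes at that brightness 2 were higher (16.7%) and 0 lower, with a median of 0.028. By array pair, the median of those 12 was 0.055, 0.084, -0.0069 and 0.035, against 0.049, 0.10, 0.0079 and 0.057 for the other bright genes, so that it was the higher on 1 pair and the lower on 3. The median of all 24, which include 12 dimmer genes, lay below that of the bright genes on each of the 4 array pairs, by 0.023 to 0.063 (log2), and by 0.031 to 0.038 under the 5 scalings.

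**Figure D4:**
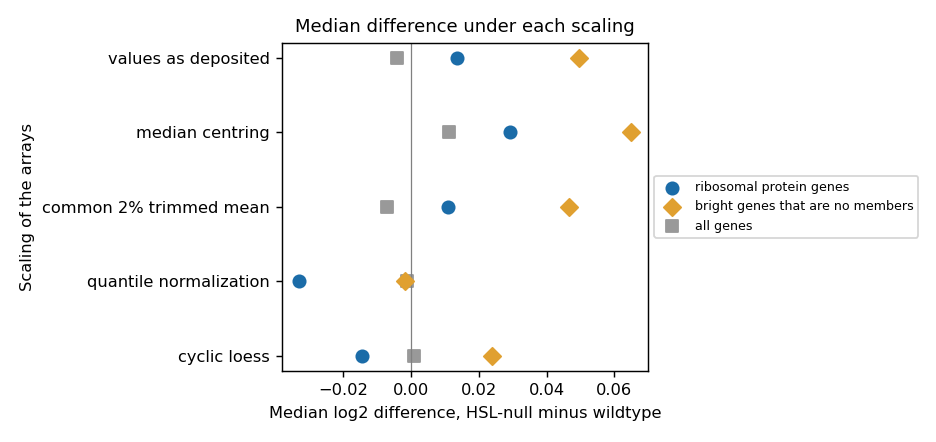
Median log2 difference, HSL-null minus wildtype, of the 24 ribosomal protein genes (circles), the 114 bright other genes (diamonds) and all genes above the filter (squares) under 5 scalings of the arrays. The circles change sign, from 0.014 with the values as deposited to -0.033 with quantile normalization, and lie left of the diamonds in each row.

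Other genes of translation gave 0 separated members too. The elongation and termination list had 7 genes above the filter of 10 on the arrays, with 0 higher and 3 lower (42.9%) on every pair and a median of 0.021. Over all genes 19.7% were higher and 21.5% lower, which is a background for each list that follows. Of the 114 bright genes above, which include Eef1a1 and Eef2, 30.7% were higher and 4.39% lower. Eef1a2, the muscle form of the factor that brings tRNA, averaged 4367 ± 81.1 in wildtype against 4434 ± 295 (SD, n = 2 arrays) in HSL-null. Eef1a1, its form in most other cells, measured 2150 and 2215 against 2130 and 2080, and Eef2, the translocation factor, 2042 and 1955 against 1922 and 1807. The third, the release factor Etf1, differed by -0.29 ± 0.14.

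Of 29 initiation factor genes 1 was higher on every pair (3.45%, against 19.7% of all genes) and 5 were lower (17.2%, against 21.5%), with a median of -0.015. Eif4b, a helper of the mRNA helicase and an S6 kinase substrate, measured 463 and 476 in wildtype and 410 and 408 in HSL-null, a difference of -0.20 ± 0.020. The brightest, Eif4a2 and Eif3c, overlapped, at 0.043 ± 0.11 and -0.030 ± 0.051. The list of other TOP mRNAs, which shares elongation and initiation factors with these, had 12 genes above the filter, 0 higher and 4 lower on every pair (33.3%, against 21.5% of all genes; median 0.0041). Its brightest gene Tpt1, a small protein linked to growth, measured 4613 and 4412 against 4604 and 4686.

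Ribosome biogenesis genes had a median of -0.046 over 33 genes, with 3 higher and 9 lower on every pair (9.09% and 27.3%, against 19.7% and 21.5% of all genes). Of the 33 genes 23 were below 0, against 2482 of all 4851 genes. Fbl, the methyltransferase fibrillarin, measured 208 and 213 in wildtype and 188 and 186 in HSL-null (-0.17 ± 0.020). The brightest, Nop10 and Ncl, overlapped, at -0.072 ± 0.12 and -0.038 ± 0.043. In the list of mTOR and S6 kinase genes 2 of 10 were higher (20%) and 1 lower (10%), with a median of -0.036. Eif4ebp1, the translation repressor that mTOR inactivates, measured 203 and 207 against 217 and 228 (0.12 ± 0.037), while its relative Eif4ebp2 differed by 0.012 ± 0.013.

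The mitochondrial ribosome, built from another set of nuclear genes, gave a similar picture. Of 58 genes above the filter 10 were higher (17.2%) and 12 lower (20.7%) on every pair, 0 were separated and the median was 0.015. The brightest, Mrpl18, measured 1727 ± 26.7 in wildtype and 1879 ± 43.7 in HSL-null (SD, n = 2 arrays), and the next, Mrpl51, overlapped at -0.0085 ± 0.052. The median was 0.0077 for its 38 large and 0.025 for its 20 small subunit genes. No list of translation genes thus held a member that was 1.5-fold apart on all pairs.

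**Figure D5:**
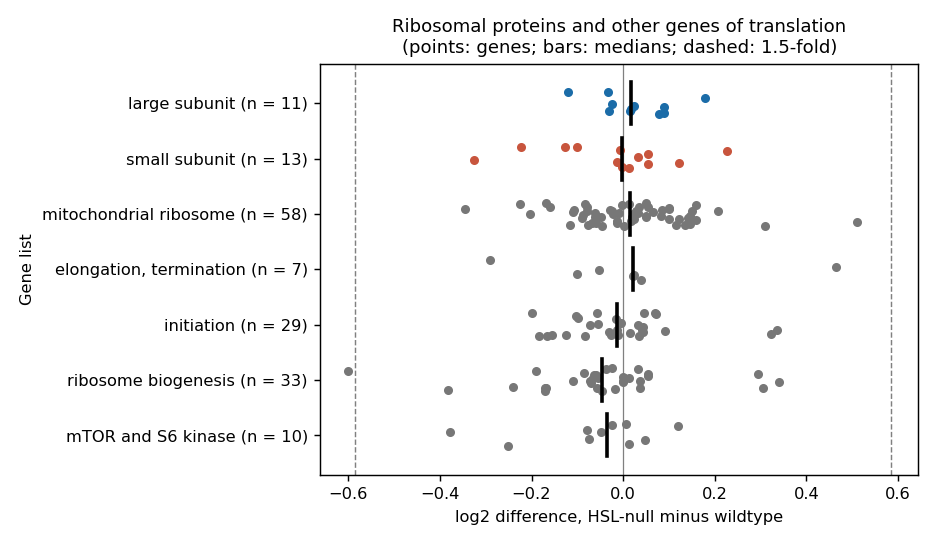
Log2 difference, HSL-null minus wildtype, of the genes above the filter in the lists named on the axis (points, spread vertically for visibility), with the median of each list as a black bar. The medians lie between -0.046 and 0.021, and a single point, Utp14a of ribosome biogenesis at -0.60, passes a dashed line at 1.5-fold, without doing so on every array pair.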

How the data were processed

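The deposited table holds 1 linear intensity per probe set and array, for 12488 probe sets. The authors' summary and scaling steps were not given in the sources used here; the 2% trimmed means of the 4 arrays lay between 99.3 and 99.6, so the deposited intensities were used without rescaling. The platform annotation gave the gene names (10855 with 1 symbol, 396 with several, 1237 not listed). The 66 control probe sets were left out. Values were floored at the 25th percentile (5.7), put on the log2 scale, and filtered on a mean at or above the median probe set (27.7), which left 4851 genes at 1 probe set each. No p-value was computed, since each genotype is 1 pool; errors are SDs of 2 arrays, and SEs of log2 differences from duplicates, so they hold array error and not variation between animals. The number of arrays limits the precision. The genes named were, in each subunit, up to 3 in each direction with the largest differences among those whose arrays do not overlap; the 4 brightest and the 2 dimmest; paralog pairs; and Rplp0, Rpsa and Rps19. In the other lists they were the separated genes or the 2 brightest; further genes were picked after their values were seen. Genes and lists were chosen with earlier results of these data known. Names on that rule that had no probe set of a single symbol have no value here; these include Rps6, Rps27a, Rplp1, Rplp2 and the list of the 5S particle (Rpl5, Rpl11). The macrophage markers had a median of -0.020 over 6 genes and the endothelial markers of -0.085 over 4. Python 3.11.15, numpy 2.4.6, pandas 2.3.3, R 4.3.3 and limma 3.58.1 were used, with other scalings, floors, filters, probe set choices and thresholds tried as alternatives. Start sequences are RefSeq's, assembly GRCm38.p6.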

Additional observations from a re-analysis of the deposited data

How the results depend on the processing

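With 1 pool per genotype, animal variation cannot be assessed, and probe sets at low intensity limit 11 of the 35 genes. The count of separated genes was 0 under each of the alternatives run, the lower fold threshold included. The higher fold threshold and the settings that only removed genes could not have raised it. The count of genes lower on every pair was 5 as reported, 3 with median centring, 9 with quantile normalization and 3 with the filter at the 75th percentile (21 genes). Of all genes 21.5%, 18.5%, 21.0% and 24.2% were lower under these settings, in that order. With quantile normalization the median was -0.033 over the 24 genes, -0.020 for the large and -0.055 for the small subunit, and -0.032 relative to all genes; with cyclic loess it was -0.014, and -0.015 relative to all genes. Single genes moved too: with quantile normalization Rplp0 was at -0.063, Rps28 at -0.065, Rpl19 at -0.085 and Rps7 at 0.069. Rpl13a and Rps27 stayed near their values, at 0.19 and 0.25. The cause was not tested. With the replicate block (same-numbered arrays only) 8 of 24 genes were higher on both pairs, where 25.4% of all genes were, up from 19.7% on 4 pairs; the arrays share only a number (correlation of their deviations -0.067 across genes). For bright genes only, 2 were higher and 2 lower of 19 (10.5% each), and with probe sets of several symbols 10 and 8 of 57. The shares of all genes beside both were 19.7% higher and 21.5% lower. Both settings were added after the data were seen and change the number of entries. Leaving out 1 array leaves 2 pairs: of all genes 33.4% to 35.1% were then higher and 35.8% to 36.9% lower on every pair, and of the 24 genes 5 to 13 were higher and 6 to 10 lower. The medians were then -0.0078 to 0.051 for the large subunit and -0.0091 to 0.032 for the 24 genes relative to all genes. The higher count was 11 when wildtype array 1 was left out and 13 for HSL-null array 2, and the lower count 9 for wildtype array 2 and 10 for HSL-null array 1.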

Other observations

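Within the mitochondrial ribosome, a few genes chosen after their values were seen differed on every array pair by more than their duplicates did, though none by 1.5-fold. Mrps33 measured 165 and 169 in wildtype and 210 and 205 in HSL-null, a log2 difference of 0.31 ± 0.023 (SE of duplicates). Mrpl24 measured 288.3 and 287.6 against 310.1 and 307.3 (0.10 ± 0.0068).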
